A study of Homo sapiens with 8 samples.

Results

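The genes described here encode proteins that neutrophils and eosinophils store in their granules, together with genes that process, anchor or accompany that cargo. They were chosen by name: MPO, PRG2, ELANE, PRTN3, AZU1, CTSG, LYZ, MS4A3, CST7 and SRGN, each through the probe sets that carry its symbol in the probe annotation supplied with the data. The choice was made with earlier results of these data known. Counts of these genes beside shares of all genes are therefore a description, not a test of the group. Of these 10 genes 9 had a probe set, 1 each, among 17687 genes measured, and ELANE, which encodes neutrophil elastase, was not analysed here. The study put 8 RNA samples on arrays, 4 from K562 and 4 from KBM5, human cell lines from chronic myeloid leukaemia, a disease driven by the BCR-ABL1 kinase that imatinib (IM) blocks. The groups were control (no drug), OR21 (100 nM for 3 days), IM (1000 nM for 24 hours) and the combination, in which the same OR21 exposure came before IM. For the combination only the protocol, not the sample's own label, states how much OR21 was given. The series title calls a compound written OR-2100 a demethylating agent, and the sample labels write OR21, taken here as the same compound. No line and treatment had a second array.

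Developing granulocytes make their granule proteins in waves. Primary (azurophil) granules are filled first, at the promyelocyte stage, with myeloperoxidase and the serine proteases of the elastase family, and secondary granules with lactoferrin and lipocalin follow later. Eosinophils fill a different granule with major basic protein and cationic ribonucleases. These strongly basic proteins are held on the negatively charged proteoglycan serglycin, and the proteases are stored active after a dipeptidyl peptidase, cathepsin C, has trimmed them.

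The promoters of 4 of the 10 genes were in the RefSeq promoter table (GRCh38.p14): AZU1, PRTN3, CTSG and MS4A3. They are shown because the compound is described as a demethylating agent and methylation sits on CG dinucleotides, which are in capitals. Each runs from 250 bases before to 50 bases after the annotated start, 5′ to 3′ on the strand of the gene. The AZU1 window is chr19:827587-827886 (plus strand), PRTN3 chr19:840749-841048 (plus), CTSG chr14:24576201-24576500 (minus) and MS4A3 chr11:60056415-60056714 (plus).
AZU1: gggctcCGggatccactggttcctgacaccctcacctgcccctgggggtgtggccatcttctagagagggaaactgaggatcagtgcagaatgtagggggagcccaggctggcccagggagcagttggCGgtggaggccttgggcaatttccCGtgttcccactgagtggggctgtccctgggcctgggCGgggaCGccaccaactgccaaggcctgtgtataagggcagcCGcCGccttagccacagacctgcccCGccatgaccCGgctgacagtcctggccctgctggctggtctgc
PRTN3: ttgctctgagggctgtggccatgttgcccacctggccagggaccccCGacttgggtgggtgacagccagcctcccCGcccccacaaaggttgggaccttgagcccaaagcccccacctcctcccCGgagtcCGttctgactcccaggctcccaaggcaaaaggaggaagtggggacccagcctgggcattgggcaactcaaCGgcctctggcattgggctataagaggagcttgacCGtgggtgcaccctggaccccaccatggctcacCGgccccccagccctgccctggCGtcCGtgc
CTSG: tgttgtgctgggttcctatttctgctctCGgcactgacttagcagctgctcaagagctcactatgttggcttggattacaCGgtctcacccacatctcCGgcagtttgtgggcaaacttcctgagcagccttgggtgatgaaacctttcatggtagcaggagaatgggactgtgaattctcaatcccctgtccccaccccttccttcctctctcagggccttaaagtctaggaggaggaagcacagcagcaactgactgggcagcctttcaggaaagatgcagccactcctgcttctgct
MS4A3: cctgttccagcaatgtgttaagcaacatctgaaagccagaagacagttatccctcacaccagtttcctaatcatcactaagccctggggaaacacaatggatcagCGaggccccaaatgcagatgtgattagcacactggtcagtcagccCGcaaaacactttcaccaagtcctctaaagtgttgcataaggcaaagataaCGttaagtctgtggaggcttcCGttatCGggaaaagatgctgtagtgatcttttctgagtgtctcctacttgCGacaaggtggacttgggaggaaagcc

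AZU1 and PRTN3 had 9 CG dinucleotides each in the 300 bases, MS4A3 had 6 and CTSG had 3. Over 27305 promoters of the same length the median was 14, with quartiles of 3 and 28, so all 4 lay at or above the lower quartile and below the median. The letters GAGGAA, a core bound by factors of the PU.1 kind, occurred on either strand in PRTN3 (1), CTSG (2) and MS4A3 (1) and in 27.6% of all promoters. AACTG, a MYB core, occurred in AZU1 (3), CTSG (2) and MS4A3 (2) and in 39.9% of promoters. TTGCNNAA, a form bound by C/EBP factors, occurred in PRTN3 (1), AZU1 (1) and MS4A3 (2) and in 10.6%. In these 4 windows 0 matches of one of these 3 motifs overlapped a match of another. The methylation of these windows was not measured. AZU1, PRTN3 and ELANE are consecutive genes on chromosome 19.

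Values are linear intensities as deposited by the authors. A gene counted as above background on an array when its probe set exceeded the 95th percentile of 612 negative control probe sets, a level between 161 and 263. Array medians were 77.8 to 83.3, and between 5874 and 7083 genes were above background. The line labels were checked on marker lists. All 5 measured erythroid markers, GATA1 and HBZ among them, were above background on every K562 array and on no KBM5 array. Of 7 measured myeloid markers 3 to 6 were above background in KBM5, CEBPA and SPI1 on all 4 arrays, against 0 or 1 in K562. Of 4 epithelial markers 2 were above background on each K562 array and 0 on each KBM5 array. Of 5 measured lymphoid markers 0 were above it in K562 and 0 or 1 in KBM5. Levels of different probe sets are not compared with each other. In these bulk samples fewer cells of a type and less RNA per cell cannot be told apart.

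In KBM5 most of the granule genes were above background before any drug, and in K562 most of them were below it. On the KBM5 control array 7 of 9 were above background, namely PRTN3, AZU1, CTSG, LYZ, MS4A3, CST7 and SRGN. On each K562 array only LYZ and SRGN were, and the other 7 stayed below background on all 4. With OR21 or the combination all 9 were above background in KBM5, and with IM alone 7.

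**Figure D1:**
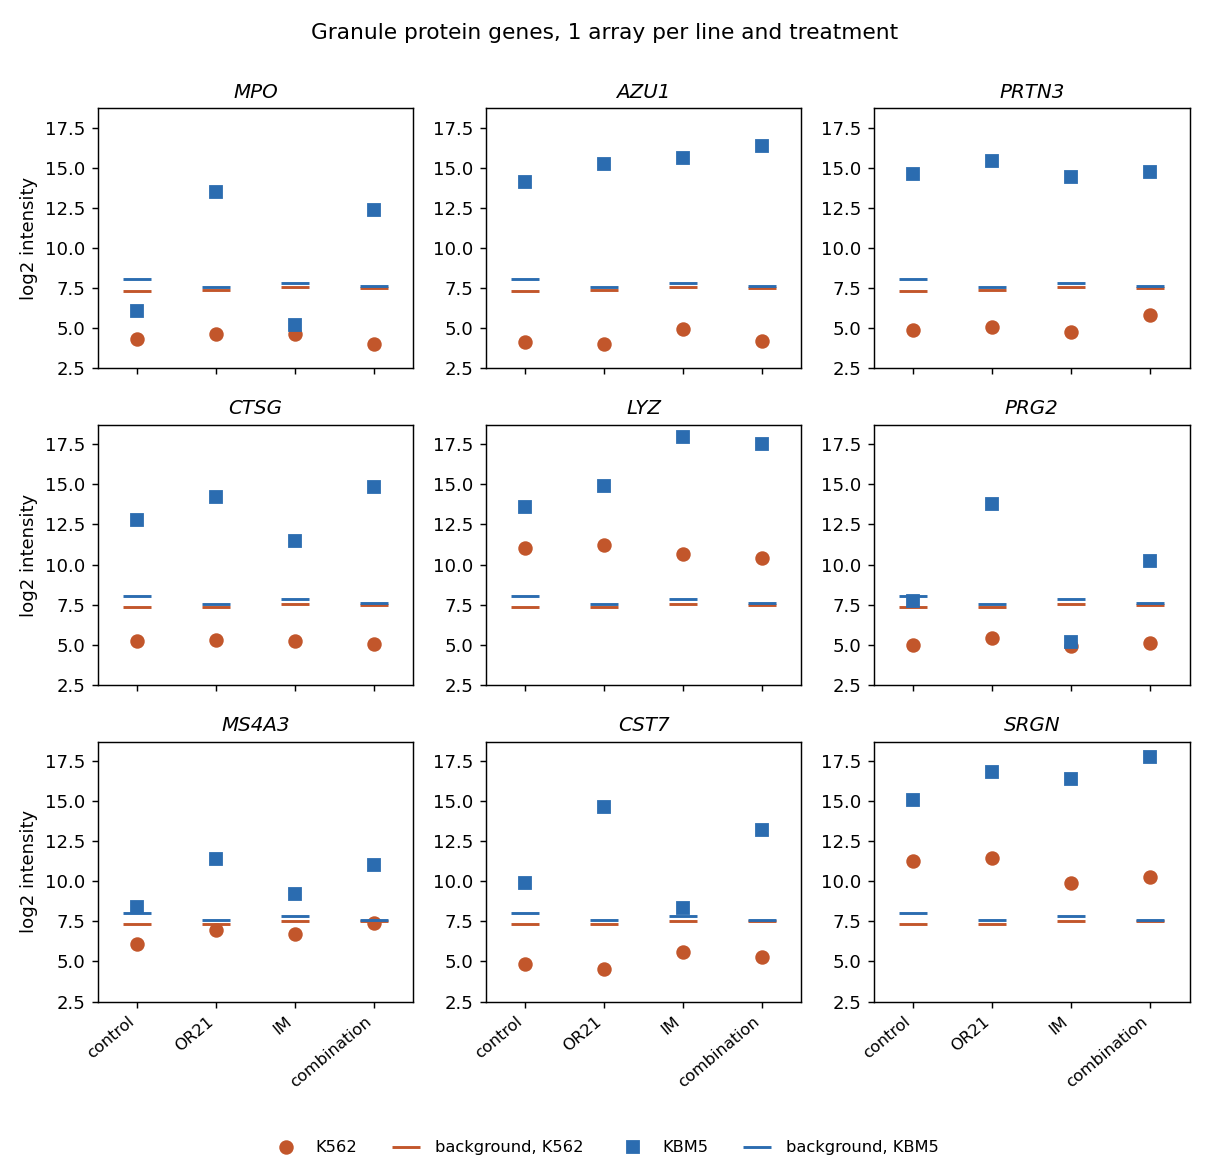
Log2 intensity (vertical axis) of the 9 measured granule genes under the 4 treatments (horizontal axis); each symbol is 1 array (circles K562, squares KBM5) and each dash is that array's background. MPO and PRG2 rise from below background to above it in KBM5 only where OR21 was given, while K562 shows only LYZ and SRGN above background.

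The elastase-family genes set the lines furthest apart. AZU1 encodes azurocidin, an antimicrobial relative of elastase without protease activity. Its KBM5 intensities were 17749 (control), 38589 (OR21), 49482 (IM) and 82396 (combination), against 15.7 to 30.9 in K562, all below background. The KBM5 arrays were at least 237-fold above the K562 background (limma, log2 difference 11.0036 ± 0.34 (SE), adjusted p = 4.4e-06, higher in 4 of 4 treatment pairs). PRTN3, which encodes proteinase 3, the autoantigen of granulomatosis with polyangiitis, read 25245, 44586, 21917 and 27502 in KBM5 in the same order and 27.0 to 57.0 in K562, at least 166-fold apart (limma adjusted p = 3.37e-06). CTSG, which encodes the chymotrypsin-like protease cathepsin G, read 6992, 19152, 2837 and 28746 in KBM5 and 33.5 to 38.5 in K562, at least 59.3-fold apart (limma adjusted p = 7.39e-05). For these 3 genes every KBM5 array was above every K562 array, which held for 8 of the 9 granule genes (not PRG2) and for 14.6% of all genes. PRTN3 and AZU1 are related in sequence to each other and to ELANE, and cross-hybridisation between their probe sets was not tested.

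LYZ and SRGN were expressed in both lines at different levels. LYZ, which encodes lysozyme, an enzyme that cuts bacterial cell walls, lay between 1388 and 2431 in K562 and between 12342 and 254951 in KBM5, a 35.5-fold difference over the 4 treatments (log2 difference 5.15 ± 0.81, limma adjusted p = 0.00324). SRGN, which encodes the core protein of serglycin, lay between 966 and 2773 in K562 and between 34156 and 218892 in KBM5, 54.7-fold apart (5.77 ± 0.55, limma adjusted p = 0.000366). Every KBM5 array was above every K562 array for both.

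The remaining genes differed between the lines as well, but by amounts that moved with the treatment. CST7, which encodes cystatin F, an inhibitor of cathepsin C and related lysosomal proteases, was at least 16.9-fold higher in KBM5, and MS4A3, a four-helix membrane protein of granulocyte precursors, at least 5.98-fold (limma adjusted p = 0.00422 and 0.000846). MPO and PRG2 were above background only on the 2 KBM5 arrays with OR21, and their line differences of at least 3.57-fold and 3.45-fold (limma adjusted p = 0.0418 and 0.0353) rested on those arrays: without KBM5 OR21 the adjusted p was 0.135 for MPO and 0.0696 for PRG2, and without the KBM5 combination 0.156 and 0.127. Leaving out the K562 OR21 or combination array gave the same values, because each of these removes the same treatment pair, and PRG2 also missed at 0.0562 without either control. In all, 9 of 9 granule genes were called higher in KBM5, where 15% of all genes were called higher and 17% lower. The granule genes were chosen with earlier results known, so this count describes them and does not test the group. At least 2-fold higher in every one of the 4 treatment pairs were 7, all but MPO and PRG2, where 6.59% of all genes were that much higher and 7.49% that much lower. Being above background on all 4 KBM5 arrays and on no K562 array held for 5 of them (PRTN3, AZU1, CTSG, MS4A3 and CST7) and for 1.79% of all genes.

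OR21 raised a group of granule genes in KBM5. MPO, PRG2 and CST7 rose most, followed by MS4A3, CTSG and SRGN. The comparison asks what 3 days of the compound did to expression. Its log2 difference is the mean of 2 array pairs in the line, OR21 against control and the combination against IM. These are repeats of one effect only if IM does not alter the log2 change that OR21 makes. The SE and p rest on the scatter of all 8 arrays, K562 included, and not on the agreement of these 2 pairs alone. Of 9 genes 6 were called higher and 0 lower, where 0.486% of all genes were called higher and 0.0565% lower, and the median log2 difference was 2.40 against -0.03 over all genes. As the genes were chosen with earlier results known, this count does not test the group.

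MPO encodes myeloperoxidase, the haem enzyme that makes hypochlorous acid and defines the myeloid lineage in leukaemia diagnosis. In KBM5 it read 65.8 in the control and 35.9 with IM, both below background, and 11442 with OR21 and 5282 with the combination. With the values without OR21 raised to their background, the arrays with it were at least 31.7-fold higher (log2 difference as measured 7.32 ± 0.27, limma adjusted p = 1.15e-06, higher in 2 of 2 pairs).

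PRG2 encodes eosinophil major basic protein, the crystalline core of the eosinophil granule. It read 209 in the control and 35.8 with IM, below background on both arrays, and 14082 with OR21 and 1190 with the combination. The difference was at least 16.7-fold (as measured 5.57 ± 0.28 on the log2 scale, limma adjusted p = 9.1e-06). MPO and PRG2 were the 2 granule genes that were above background on both KBM5 arrays with OR21 and on neither without it, a pattern of 1.05% of all genes and of 0.204% of genes in K562, where no granule gene had it. Which genes had it depended on the cut. With the 99th percentile of the negative controls MPO, CST7 and MS4A3 had it in KBM5. PRG2 did not, its combination value lying below 1639. At the 95th percentile the PRG2 control value was below its array's 263 but above the 189 and 194 of the arrays with OR21.

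CST7 was already above background without OR21. It read 945 in the control, 24909 with OR21, 322 with IM and 9443 with the combination. The pairs gave 26.4-fold and 29.3-fold, and the mean difference was 4.80 ± 0.23 (27.8-fold, limma adjusted p = 8.03e-06). MPO, PRG2 and CST7 were at least 4-fold higher with OR21 in both pairs, which 0.0735% of all genes, or 13, were.

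MS4A3 read 336 in the control, 2735 with OR21, 585 with IM and 2110 with the combination, so that both arrays with OR21 lay above both without, as they did for 7 of the 9 (all but AZU1 and LYZ) and for 11.3% of all genes (5.42-fold, 2.44 ± 0.29, limma adjusted p = 0.00767). CTSG rose 2.74-fold in the pair without IM and 10.1-fold in the pair with it (2.40 ± 0.37, limma adjusted p = 0.0247). SRGN rose 3.39-fold and 2.62-fold (1.58 ± 0.24, limma adjusted p = 0.0231). These 6 were at least 2-fold higher in both pairs, as were 0.786% of all genes, with 0.153% at least 2-fold lower. With log2(intensity + 16) MS4A3 and SRGN (adjusted p = 0.0792 each) and CTSG (0.116) missed the threshold, leaving 3 calls. The calls of CTSG and SRGN had the highest adjusted p of the 6. CTSG had an adjusted p of 0.0936 without the KBM5 IM or the KBM5 combination array. SRGN had 0.0691 without the KBM5 control or OR21 array and 0.051 without any 1 of the K562 arrays, where its own difference did not change.

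AZU1, PRTN3 and LYZ were not called for OR21. AZU1 was 2.17-fold and 1.67-fold higher in the 2 pairs (0.93 ± 0.25, limma adjusted p = 0.177) and PRTN3 1.77-fold and 1.25-fold (0.57 ± 0.28, adjusted p = 0.43). LYZ was 2.53-fold higher with OR21 than in the control and 1.37-fold lower with the combination than with IM (0.44 ± 0.37, adjusted p = 0.669). Of the genes with a promoter shown above, CTSG and MS4A3 were thus called and AZU1 and PRTN3 were not.

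**Figure D2:**
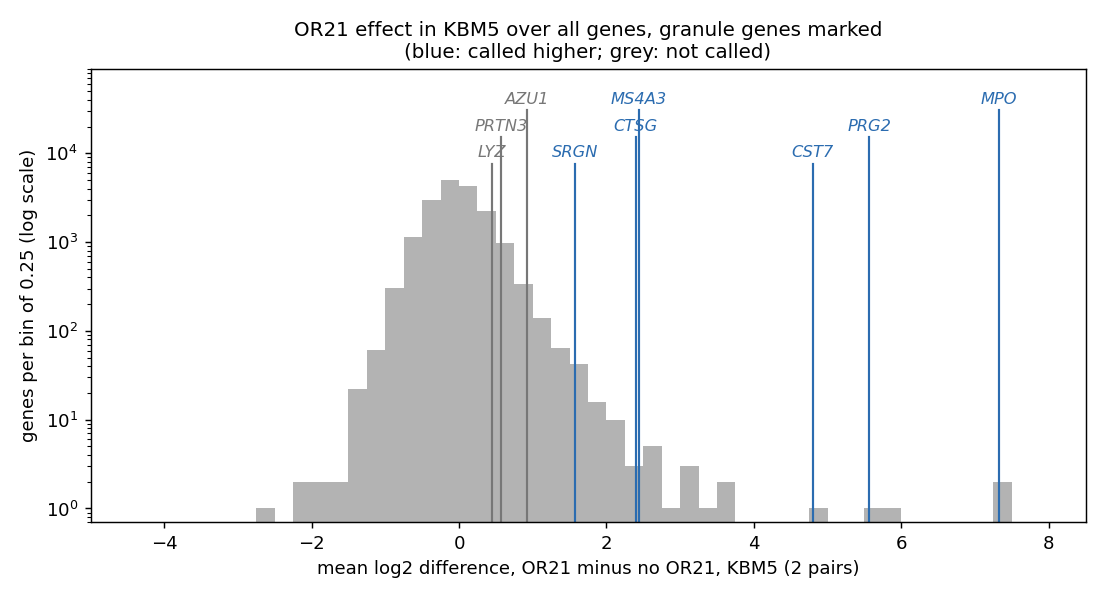
Number of genes per bin (vertical axis, log scale) by mean log2 difference with OR21 in KBM5 (horizontal axis), over 17687 genes and 2 array pairs, with the granule genes marked by lines (blue called higher, grey not called). MPO, PRG2 and CST7 lie between 4.80 and 7.32 as measured, the positions of MPO and PRG2 resting on values below background without OR21, and LYZ, PRTN3 and AZU1 lie on the shoulder of the main distribution.

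In K562 no granule gene was called for OR21. The 7 genes at background stayed there, MS4A3 coming nearest with 172 on the combination array against a background of 182. LYZ read 2112 in the control and 2431 with OR21, 1611 with IM and 1388 with the combination, and SRGN 2485, 2773, 966 and 1213 in the same order. The log2 differences with OR21 were -0.0063 ± 0.37 for LYZ and 0.24 ± 0.24 for SRGN. Limma called 0 of 9 (2 had an unadjusted p under 0.05, PRTN3 and MS4A3, both at background), and over all genes it called 0.0905% higher and none lower, with 863 genes at an unadjusted p under 0.05. No granule gene was at least 2-fold higher or lower in both pairs, where 0.266% and 0.0226% of all genes were.

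The lines differed in their response to OR21 by a test of the difference itself for MPO (7.45 ± 0.38, limma adjusted p = 3.21e-05), PRG2 (5.27 ± 0.40, adjusted p = 0.000488) and CST7 (5.10 ± 0.33, adjusted p = 0.000139), where 0.0452% of all genes were called with the higher value in KBM5 and 0.0565% with the lower. All 3 were at background on every K562 array, so these sizes are not exact. CTSG (2.45 ± 0.53, adjusted p = 0.219), MS4A3 (1.64 ± 0.42, 0.289), AZU1 (1.38 ± 0.36, 0.301) and SRGN (1.33 ± 0.34, 0.289) missed the threshold in limma. CTSG passed it without the KBM5 control or OR21 array (3.39, adjusted p = 0.00361). Over both lines together limma called none of the 9 for OR21 (3 had an unadjusted p under 0.05: MPO, PRG2 and MS4A3) and none of all genes, of which 622 had an unadjusted p under 0.05.

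IM divided the granule genes of KBM5. LYZ, AZU1 and SRGN rose and CST7 fell in both array pairs, IM against control and the combination against OR21. PRG2 and MPO were called lower, with a fall above background in the second pair only. These pairs use the same 4 arrays as the OR21 comparison. Of 9 genes 3 were called higher and 3 lower, where 10.8% and 10.6% of all genes were, and the median log2 difference was -0.36 against 0.03 over all genes.

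LYZ had the largest rise with IM among the 9. Its intensity went from 12342 in the control to 254951 with IM (20.7-fold) and from 31218 with OR21 to 185905 with the combination (5.96-fold), a mean difference of 3.47 ± 0.37 (limma adjusted p = 0.000105). AZU1 rose 2.79-fold and 2.14-fold (1.29 ± 0.25, adjusted p = 0.00441). SRGN rose 2.44-fold and 1.89-fold (1.10 ± 0.24, adjusted p = 0.00727), and missed at 0.0741 without the KBM5 control or IM array. For LYZ both arrays with IM lay above both without, and for AZU1 as well (27.1% of all genes did), whereas the SRGN values interleaved, OR21 alone (115746) lying above IM alone (83475).

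CST7 fell 2.93-fold with IM alone and 2.64-fold on top of OR21 (-1.48 ± 0.23, adjusted p = 0.00113). PRG2 was at background in the control and with IM, and where OR21 had raised it the combination was 11.8-fold lower than OR21 alone (mean of both pairs -3.05 ± 0.28, adjusted p = 4.65e-05). MPO was likewise measurable in 1 pair, in which the combination was 2.17-fold lower than OR21 alone (mean of both pairs -0.99 ± 0.27, adjusted p = 0.0238). The MPO call was lost without any 1 of the KBM5 arrays, at adjusted p = 0.065 without the control or IM array and 0.134 without the OR21 or combination array. After this fall MPO, PRG2 and CST7 in the combination were still at least 20.1-fold, at least 4.52-fold and 9.99-fold above the KBM5 control, on 1 array each.

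As measured, LYZ and AZU1 were at least 2-fold higher in both pairs and PRG2 (at background in 1 pair) and CST7 at least 2-fold lower, where 4.99% and 6.2% of all genes were.

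PRTN3, MS4A3 and CTSG were not called for IM in KBM5. PRTN3 had -0.45 ± 0.28 (limma adjusted p = 0.322) and MS4A3 0.21 ± 0.29 (0.701). CTSG went in opposite directions in its pairs, 2.46-fold lower with IM alone and 1.5-fold higher on top of OR21 (-0.36 ± 0.37, adjusted p = 0.597). Without the KBM5 OR21 or combination array its fall was called (-1.30, adjusted p = 0.0154), and without the control or IM array it was 0.59.

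The departure of the combination from the sum of the single drugs was therefore largest for CTSG and LYZ. In KBM5 the combination exceeded the sum by 1.89 on the log2 scale for CTSG, and 0.775% of all genes departed further in either direction. For LYZ it fell short by 1.79, further than all but 1.07% of genes. MS4A3 (-1.18) followed, and CST7 had 0.15. For MPO and PRG2, both at background in the control and with IM, no departure could be measured. Each departure rests on 4 single arrays and has no test.

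In K562 only LYZ and SRGN could be followed. SRGN fell 2.57-fold with IM alone and 2.29-fold on top of OR21 (-1.28 ± 0.24, limma adjusted p = 0.00588), both arrays with IM lying below both without, as for 25.7% of all genes. Its call was lost without any 1 of the K562 arrays, at adjusted p = 0.0906 without OR21 or the combination and 0.164 without the control or IM. LYZ was 1.31-fold and 1.75-fold lower (-0.60 ± 0.37, adjusted p = 0.343). CST7 was called higher (0.79 ± 0.23, adjusted p = 0.048) although all 4 K562 values, 23.1 to 49.2, were below background, and it was not called after quantile normalization (adjusted p = 0.103) or without any 1 of the K562 arrays (0.332 or 0.386). With SRGN these were 1 lower and 1 higher call among 9, where 8.05% and 5.34% of all genes were called. SRGN was the 1 gene at least 2-fold lower in both pairs, as were 4.39% of all genes, and none of the 9 was at least 2-fold higher, as were 2.52%.

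**Figure D3:**
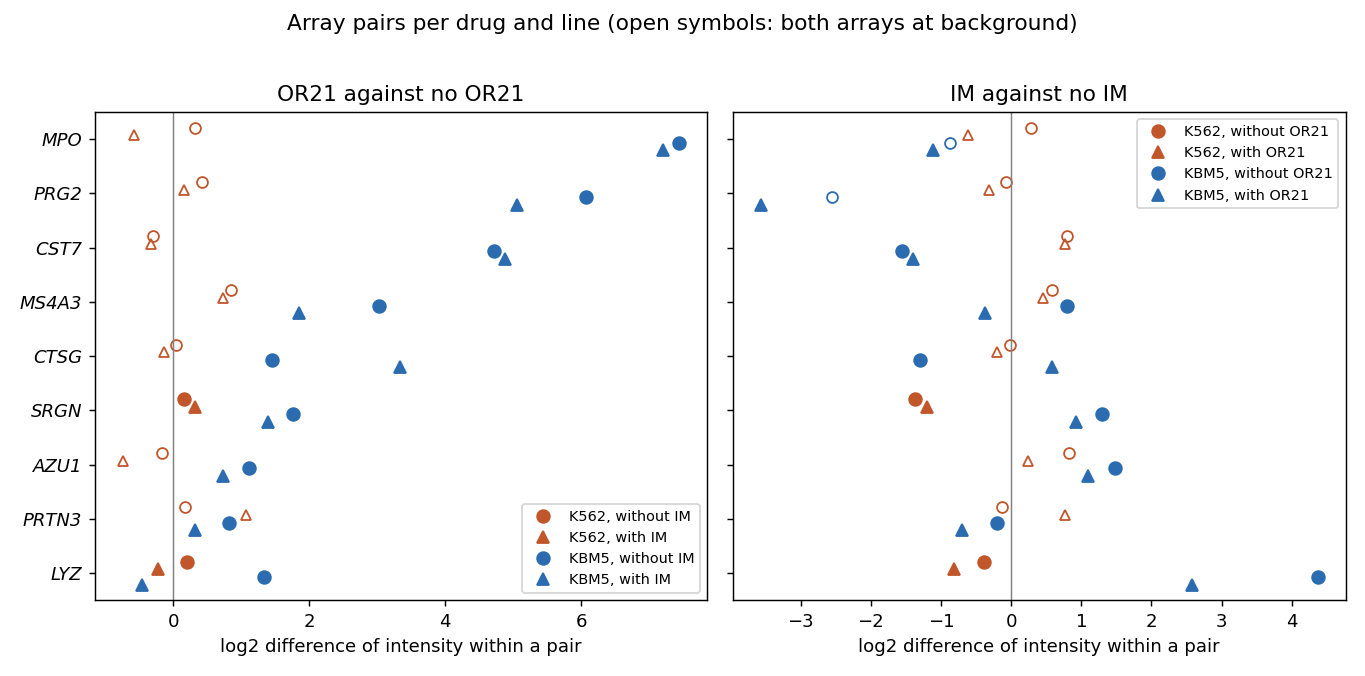
Log2 difference within each array pair (horizontal axis) for each granule gene (vertical axis), with OR21 on the left and IM on the right; circles are pairs without the other drug, triangles pairs with it, orange K562, blue KBM5, and open symbols have both arrays at background. OR21 differences of MPO, PRG2 and CST7 in KBM5 lie above 4, and the SRGN pairs with IM lie below 0 in K562 and above 0 in KBM5.

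The test of the difference between the lines in the response to IM called 4 of the 9, of which LYZ and SRGN were above background in both lines. LYZ (KBM5 minus K562 4.07 ± 0.52, limma adjusted p = 0.00112) and SRGN (2.38 ± 0.34, adjusted p = 0.00176) went up in KBM5 and were lower in K562, where the LYZ value was not called. PRG2 (-2.86 ± 0.40, limma adjusted p = 0.00169) and CST7 (-2.26 ± 0.33, limma adjusted p = 0.00196) were called lower in KBM5. Both were at background on every K562 array, PRG2 also in the KBM5 control and with IM, so these 2 sizes are not exact. A fall could not have been seen in K562, so for these 2 genes the test cannot show that the responses differ. The 4 calls were 2 of 9 in each direction, against 5.25% and 4.9% of all genes. Over both lines together 0 of 9 were called for IM in limma (1, AZU1, had an unadjusted p under 0.05) and 0 of 9 for the combination against control (1, MS4A3). Of all genes 2.75% and 4.87% were called higher and lower for IM, and 0.0622% and 0.136% for the combination.

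Other granule genes were set beside these from lists of names. Of 14 other azurophil genes measured 8 were above background on each KBM5 array and 5 to 7 on each K562 array. GRN, GUSB, CTSD, CD63 and CD68 were above it on all 8, and between the lines 5 of the 14 were called higher in KBM5 and 1 lower (15% and 17% of all genes), with a median log2 difference of 0.15 against 0.04 over all genes. Among those called higher in KBM5 were the serine protease PRSS57 at 11732 and the complement protease adipsin (CFD) at 1779 in the KBM5 control. The defensins DEFA1, DEFA3 and DEFA4 and BPI were below background on all 8 arrays. RNASE2, the eosinophil-derived neurotoxin, read 4836 in the KBM5 control and was under the background of each K562 array (at least 88.1-fold apart, limma adjusted p = 2.69e-05). The eosinophil genes EPX, PRG3 and CLC were below background on all 8 arrays. Of 10 eosinophil and basophil genes 2, RNASE2 and the granzyme GZMB, were above background on each KBM5 array and 1 (GZMB) on each K562 array. Of 21 genes of specific and gelatinase granules 1 to 4 were above it on a KBM5 array and 1 on a K562 array. LCN2, CAMP and MMP9 were below it on all 8.

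With OR21 in KBM5, where 0.486% of all genes were called higher and 0.0565% lower, 6 genes of these other lists were called higher and 1 lower, of which EPX and SERPINB10 were at background on every array. Those 5 above background on some array missed the threshold with log2(intensity + 16) (adjusted p between 0.0792 and 0.0885). RNASE2 rose 3.04-fold (limma adjusted p = 0.0442), reading 18751 with OR21, 15676 with IM and 37438 with the combination. That call was lost after quantile normalization (adjusted p = 0.0639), without any 1 of the K562 arrays (0.0551) and without the KBM5 control or OR21 array (0.123). Of 10 measured eosinophil and basophil genes RNASE2 and EPX were called, EPX at background on every array. In the azurophil list CTSD, the lysosomal protease cathepsin D, was the 1 call among 14 (3.58-fold higher, adjusted p = 0.012). CHI3L1, a chitinase-like protein of specific granules, was the 1 among 21 (adjusted p = 0.0229, between 0.051 and 0.0628 without any 1 array). Among 14 genes of protease activation and inhibition, SLPI, an inhibitor of elastase and cathepsin G, rose from 557 to 3439 with OR21 and from 90.3, below background, to 1134 on top of IM (3.14 ± 0.32, adjusted p = 0.00307). SERPINB10 was called at background, and SERPINB8 was called lower (-1.36 ± 0.24, limma adjusted p = 0.0424, between 0.0786 and 0.103 without any 1 array). SERPINB8 was below background in the control and with OR21, so a fall could be measured only in the pair on top of IM. CTSC, cathepsin C, was well above background on all 8 arrays and was not called for OR21 in KBM5. None of 15 proteoglycan synthesis genes and none of 18 granule trafficking and neutropenia genes was called for OR21 in limma.

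Factors that regulate granule genes moved with OR21 in KBM5 in both directions. Of 15 measured, 2 were called higher and 1 lower, against 0.486% and 0.0565% of all genes, and all 3 missed the threshold with log2(intensity + 16) (adjusted p = 0.0792 for GATA2 and CEBPE and 0.0885 for IRF8). GATA2, a factor of stem cells and of the eosinophil and mast cell lineages, read 196 in the control and 75.7 with IM, below background, and 2154 with OR21 and 464 with the combination (at least 4.07-fold higher, limma adjusted p = 0.00284). CEBPE, required for eosinophil and late neutrophil granules, was below background on 3 of 4 arrays and read 241 with OR21 (2.06 ± 0.25, adjusted p = 0.00832). IRF8, a factor of monocytes and dendritic cells, fell from 19984 to 2834 with OR21 and from 29304 to 9677 on top of IM (4.62-fold, adjusted p = 0.0265, and 0.0932 without the KBM5 control or OR21 array). The median of the 15 was -0.04, beside -0.03 over all genes. The difference between lines was called for GATA2 (3.06 ± 0.42, adjusted p = 0.0264). GATA1 was below background on all KBM5 arrays. The part of these factors in the change of MPO, PRG2 and CST7 was not tested.

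**Figure D4:**
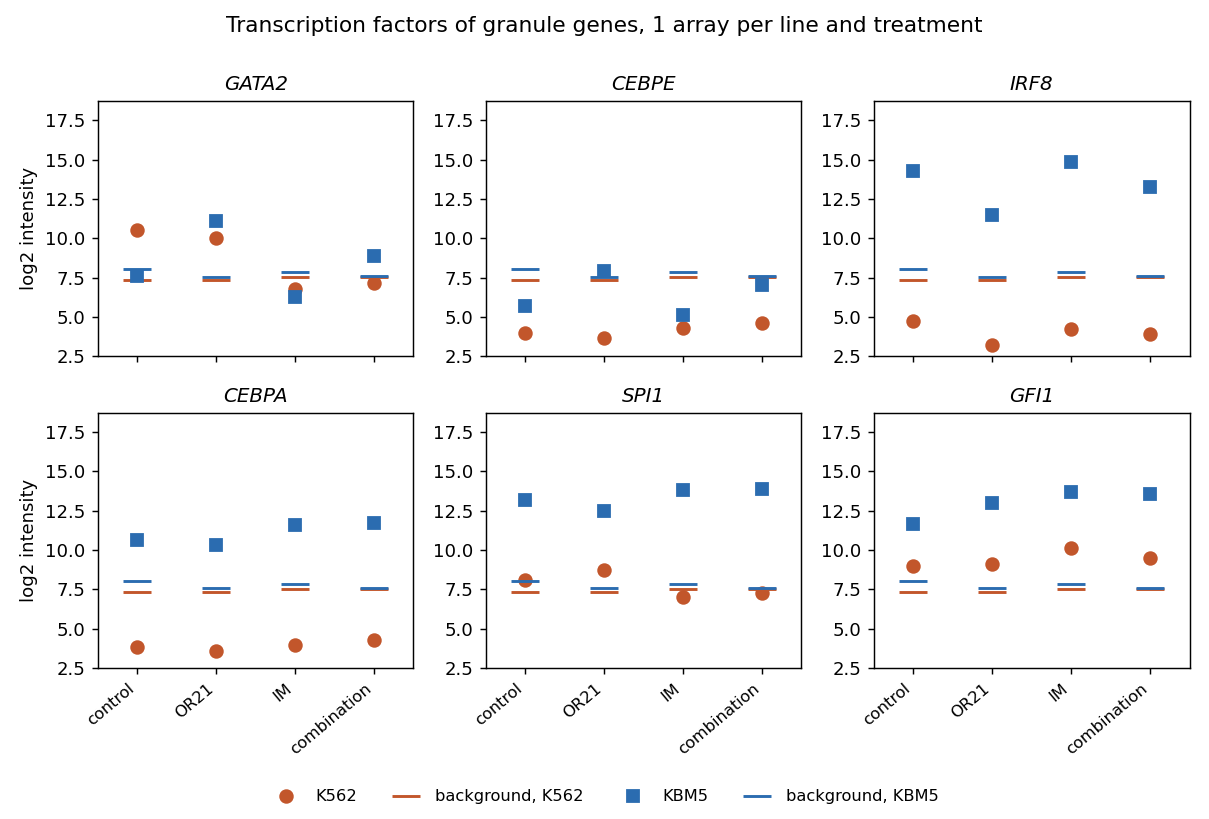
Log2 intensity (vertical axis) of 6 factors of granule genes under the 4 treatments (horizontal axis), 1 array per symbol (circles K562, squares KBM5), with each array's background as a dash. GATA2 crosses the background in KBM5 only with OR21 and falls below it in K562 with IM, and IRF8 is lower in KBM5 where OR21 was given.

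With IM in KBM5 the other azurophil genes were called higher in 4 of 14 and lower in 2, where 10.8% and 10.6% of all genes were; the same shares apply to the counts that follow. CD68, a macrophage lysosomal protein, rose 8.26-fold, CFD 4.44-fold, CTSD 4.18-fold and the progranulin gene GRN 3.35-fold (limma adjusted p between 0.000124 and 0.00109). RNASE2 rose 2.54-fold (adjusted p = 0.00698, and 0.0938 without the KBM5 control or IM array). Of the 21 specific and gelatinase granule genes 5 were called higher, of which CHI3L1 was above background on both arrays with IM (16.04-fold as measured, 4.00 ± 0.23, adjusted p = 5.53e-06). S100A8, a subunit of calprotectin, was above it on 1, the combination, at 270.2. Of the protease and inhibitor list 5 of 14 rose and 1 fell. SERPINB1, an inhibitor of neutrophil elastase, proteinase 3 and cathepsin G, rose 5.36-fold (adjusted p = 5.73e-05), CST3 3.15-fold and SERPINB8 at least 2.60-fold, and SLPI fell (-2.11 ± 0.32, adjusted p = 0.000904). Among the factors GATA2 was called lower (-1.79 ± 0.30) but was below background in the control and with IM alone. Its fall was above background only in the pair of the combination against OR21. GFI1, IRF8 and CEBPA rose 2.43-fold, 2.24-fold and 2.23-fold. GFI1 was lost without the KBM5 control or IM array (adjusted p = 0.378), and IRF8 and CEBPA without the OR21 or combination array (0.409 and 0.0768). Of 7 measured myeloid markers 6 were called higher with IM in KBM5 and 0 lower, beside 3 higher and 3 lower of the 9 granule genes. The summed intensity of the markers went from between 13374 and 16798 without IM to between 28167 and 34997 with it. Their part in the change of LYZ, AZU1 and SRGN was not tested.

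With IM in K562 5.34% of all genes were called higher and 8.05% lower. Of 14 other azurophil genes 2 were called higher and 2 lower. Of 14 genes of protease activation and inhibition 3 were called higher, CTSL and CTSZ among them, and 2 lower. Of these 2, SERPINB9, the granzyme B inhibitor, fell 13.8-fold (limma adjusted p = 0.000152). CTSC fell 3.48-fold (adjusted p = 0.00125, and 0.079 without the K562 control or IM array). Of 15 factors of granule genes 0 were called higher and 5 lower. Among the 5, GATA2 was at least 6.75-fold lower and MYB 3.98-fold lower (limma adjusted p = 0.000119 and 0.000513). The erythroid markers were called higher in 4 of 5 (5.34% of all genes were) beside the fall of SRGN, their summed intensity going from between 77081 and 231385 without IM to between 568627 and 615989 with it, and their part in it was not tested. No list of granule genes had a call for OR21 in K562 in limma.

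The genes most like each granule gene across the 8 arrays were found by Pearson correlation of log2 intensity, as a description. For each of the 7 granule genes above background on at least 4 arrays, the 3 highest r were taken among 7098 other genes. They were ARHGDIB, IGFBP7 and NDRG1 for PRTN3 (r between 0.9977 and 0.9983), MCTP1, CD4 and FLI1 for AZU1 (0.9978 to 0.9987), and AP1M1, TBXAS1 and S100A10 for CTSG (0.9899 to 0.9975). For LYZ they were HIPK3, RALGAPA2 and STK38L (0.9932 to 0.9957), for SRGN C3orf38, ACTR3 and PGM2 (0.9913 to 0.9959), for MS4A3 SCAF11, ZNF292 and TAX1BP1 (0.9699 to 0.9959) and for CST7 CSRP1, TAX1BP1 and SNX10 (0.9744 to 0.9807). TAX1BP1 was common to MS4A3 and CST7. Among the granule genes themselves r ran from 0.738 (LYZ with CST7) to 0.989 (AZU1 with PRTN3). All these points share their lines and arrays, with 4 in each line, so a gene that differs between the lines correlates with any other that does.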

How the data were processed

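The authors deposited 1 linear intensity per probe set and array; software, summarization and normalization: not given in the sources used here. Labelling was with biotin, per the labels. Of 24351 probe sets, 17709 carried 1 gene symbol in the supplied annotation, giving 17687 genes; 20 had more than 1 probe set, and the one with the highest mean was used. Log2(intensity) was fitted with limma 3.58.1 (R 4.3.3), with Benjamini-Hochberg adjustment across the 17687 genes, and called means an adjusted p below 0.05. One model used line plus treatment (3 residual degrees of freedom), the other a baseline, OR21 term and IM term per line (2). In the model per line each gene had 1 residual variance over all 8 arrays, so the SE of a drug effect was the same in both lines. For genes at background in K562 that variance takes in scatter below background. With 1 array per group, p reflects the scatter of these arrays around additive models, which may be technical, and the number of arrays limits precision. Where one side was below background, the fold is a bound ("at least") against the background, or the probe's own value where higher. Fold changes named "at least" are means over the arrays of a side. The fits were tested on simulated data. All 10 genes were named whatever their values; from the other lists at most the 4 called genes with the largest change were named per comparison. Genes given as below background (defensins, BPI, EPX, PRG3, CLC, LCN2, CAMP, MMP9), PRSS57 with its values, CTSC for OR21 and GATA1 in KBM5 were chosen after their values were seen, as were GUSB, CD63, GZMB and the genes above background on all 8 arrays. The genes and lists were chosen with earlier results of these data known. Alternatives were quantile normalization, brighter genes only, log2(intensity + 16), trended robust moderation, a common OR21 by IM term, each array left out and a 99th percentile background.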

Additional observations from a re-analysis of the deposited data

Results flagged for a closer look

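The test of the difference in response between the lines (limma, KBM5 minus K562, log2 scale) called 7 gene and drug combinations. For OR21 these were MPO (7.45), PRG2 (5.27) and CST7 (5.10), which rose in KBM5 in 2 of 2 pairs and were below background on every K562 array. For IM they were LYZ (4.07) and SRGN (2.38), whose pairs all rose in KBM5 and all fell in K562, and PRG2 (-2.86) and CST7 (-2.26), both below background on every K562 array. CST7 fell in KBM5 in 2 of 2 pairs, and PRG2 in the 1 pair in which it was above background. A fall of either gene could not have been seen in K562, so for these IM calls the test cannot show that the responses differ.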

How the results depend on the processing

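The line comparison was paired by treatment. No replicate block could be fitted, since each line and treatment had 1 array and the labels name no replicate. The sample titles carry a number, 1 for the K562 control and 2 for all other arrays, whose meaning is not given. The counts of granule genes called stayed within 1.5 times of the reported ones for the line difference, IM in KBM5, both differences between lines and the analyses of both lines together. For IM in K562 the 2 calls became 1 (SRGN) after quantile normalization, with log2(intensity + 16) and with a common OR21 by IM term, and 0 to 2 with 1 array left out. For OR21 in KBM5 the 6 calls became 3 (MPO, PRG2 and CST7) with log2(intensity + 16), where 3 of all genes were called instead of 96, and 5 with any 1 array left out. With that offset CTSG (adjusted p = 0.116), MS4A3 and SRGN (0.0792 each), the line differences of MPO (0.104) and PRG2 (0.0896) and the difference between lines of PRG2 for OR21 (0.0928) missed the threshold, as did all 8 other genes named for OR21 in KBM5 (CTSD, RNASE2, CHI3L1, SLPI, SERPINB8, GATA2, IRF8 and CEBPE). The difference between lines of SRGN for OR21 passed with trended robust moderation (adjusted p = 0.0244). With 1 array left out the direction turned for values that were not called: LYZ with OR21 ran from -0.22 to 0.20 in K562 and from -0.46 to 1.34 in KBM5, and with IM in KBM5 CTSG ran from -1.30 to 0.59 and MS4A3 from -0.37 to 0.80. Over all genes, the calls with 1 array left out ran from 115 to 557 for IM in both lines (1349 with all), 454 to 3201 in K562 (2368), 2722 to 3245 in KBM5 (3780), 54 to 157 for OR21 in KBM5 (96), 9 to 31 in K562 (16), 611 to 1804 and 6 to 52 for the differences of IM and OR21 (1796 and 18), and 0 to 2 for the combination (35). Other settings gave 243 for OR21 in KBM5 with trended robust moderation, 149 with the common term and 62 for brighter genes only; for OR21 in K562 these gave 27, 32 and 4, and log2(intensity + 16) gave 5; for its difference between lines 43 with trended robust moderation, 6 for brighter genes and 2 with the offset; for the combination 12 after quantile normalization, 22 for brighter genes and 0 with the offset. Quantile normalization moved the share of higher calls for IM from 36.1% to 48.7% in both lines and from 39.9% to 50.5% in K562, and that for the combination from 31.4% to 41.7%. With the 99th percentile of the negative controls as background (768 to 2016), 34 of 72 values of granule genes were above it instead of 40. The cause of these changes was not tested.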
